A study of Homo sapiens with 11 samples.

Results

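Distal acetylated FOS sites without MYRF are 9276 of the 26211 reproducible FOS intervals of CFPAC1, a cell line from a human pancreatic ductal adenocarcinoma, or 35.4% of them. A reproducible interval was a merged stretch holding a FOS peak of both libraries. Of these, 17175 overlapped a peak in each of 4 lists for H3K27ac, acetylation of histone H3 at lysine 27, and 13643 of those overlapped no peak of any of 4 MYRF lists. In 9276 of the 13643, the summit of the stronger library 1 FOS peak lay more than 10 kb from either end of every protein-coding gene. The sites were thus chosen by presence in the FOS, H3K27ac and MYRF peak lists and by distance to genes, so values drawn from these lists are described below and not tested. HPAF2, a second line of the same cancer, enters through its MYRF lists alone.

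The samples were chromatin immunoprecipitations sequenced on Illumina instruments, with 2 libraries in each of 5 groups. H3K27ac was mapped in a MYRF knockout clone, grown out by dilution from CFPAC1 cells infected with lentiCRIPSv2 (the plasmid's name as the labels spell it) that expressed wild-type Cas9 and a guide RNA against MYRF. It was also mapped in a control clone, isolated the same way after infection with lentiCRIPSv2 for which no guide is named, and FOS was mapped in the control clone as well. MYRF was mapped with an antibody made by the submitters in the original, unmodified CFPAC1 and HPAF2 lines, grown in IMDM and RPMI. Each genotype is 1 clone, so clone and loss of MYRF cannot be told apart. The labels do not say whether the libraries of a group came from separate cultures, and the peak lists do not show whether the MYRF gene was disrupted.

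The FOS lists held 29087 and 36349 peaks. The H3K27ac lists held 107586 and 110498 peaks in the knockout clone and 116466 and 109352 in the control clone, and the MYRF lists 3702 to 4743. The lists carry no read counts, so depth is unknown. All 7 ductal and epithelial marker genes examined, EPCAM, CDH1, KRT7, KRT8, KRT18, KRT19 and CLDN4, had an H3K27ac peak within 1000 bp of an end in every H3K27ac library. Of 3 acinar markers, 1 and 1 had such a peak in the knockout libraries and 1 and 2 in the control libraries. The counts for 3 endothelial markers were 1 and 1 in knockout libraries and 1 and 0 in control libraries, and for 3 leukocyte markers 1 in each of the 4 libraries, where PTPRC had none.

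FOS is a subunit of AP-1, a family of leucine zipper dimers of FOS and JUN proteins that bind the short palindromic DNA element known as the AP-1 motif and are switched on by growth factor and stress signals. Many AP-1 sites lie far from genes, in enhancers, where H3K27ac is laid down by the acetyltransferases EP300 and CREBBP and is widely read as a mark of activity. MYRF is a membrane-bound transcription factor of the endoplasmic reticulum whose cleaved part enters the nucleus, best known for its part in myelination. In carcinoma cells AP-1 is known for its link to MAP kinase signalling and to epithelial plasticity.

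Sequence could be read where a FOS summit fell in a RefSeq promoter window (GRCh38.p14), from 250 bases before to 50 after an annotated gene start. This held for 136 of the 9276 sites, or 1.47%, each in a window of its own. Because every site lies more than 10 kb from both ends of protein-coding genes, 97 of these windows belong to long noncoding RNA genes and 39 to inner promoters of protein-coding genes. The stretches below are from 8 of the strongest FOS sites with the AP-1 motif, TGANTCA with N for any base, within 30 bp of the summit. They run across summit and motif and are printed on the gene's strand with the motif in capitals, to put the place of FOS and the AP-1 letters side by side.
LOC101929388 (chr1:202236027-202236089, minus strand): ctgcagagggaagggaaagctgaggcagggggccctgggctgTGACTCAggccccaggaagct
LINC00114 (chr21:38773465-38773528, minus strand): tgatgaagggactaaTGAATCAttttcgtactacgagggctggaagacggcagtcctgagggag
LOC105376206 (chr9:107504993-107505032, plus strand): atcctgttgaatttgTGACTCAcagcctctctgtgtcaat
LINC01392 (chr7:115231308-115231344, minus strand): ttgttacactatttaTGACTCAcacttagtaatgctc
LOC105375208 (chr7:28037414-28037450, plus strand): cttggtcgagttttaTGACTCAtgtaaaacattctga
PRKG2-AS1 (chr4:81164844-81164897, plus strand): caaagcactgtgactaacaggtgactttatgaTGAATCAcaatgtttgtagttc
LOC124900414 (chr1:200483645-200483689, minus strand): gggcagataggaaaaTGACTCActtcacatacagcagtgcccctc
MEF2C (chr5:88785554-88785604, minus strand): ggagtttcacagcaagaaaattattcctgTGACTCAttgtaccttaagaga
For contrast, these are the stretches at strong FOS summits in windows with no TGANTCA. The XIRP2-AS1 summit is base 298 of the 300 in its window, so the sequence past that end could not be read.
LOC124903385 (chr14:100689105-100689165, plus strand): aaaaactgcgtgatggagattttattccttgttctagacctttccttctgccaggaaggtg
XIRP2-AS1 (chr2:167140906-167140938, minus strand): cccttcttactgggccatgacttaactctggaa

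The site in the LOC101929388 window had the highest FOS values of the 136, with fold enrichments of 24.4 and 35.4 in the FOS libraries. Fold enrichment is the authors' ratio of signal at the summit to a local background estimate, and it is used here only to describe and rank peaks within a list. The middle of its AP-1 motif was 30 bp from the summit, and the nearest protein-coding gene was LGR6, a receptor of R-spondins, 42275 bp away. LINC00114, 31703 bp from the ETS factor gene ETS2, had FOS at 20.7 and 25.4 and its motif also 30 bp away. At LOC105376206 the motif was 6 bp from the summit, FOS was 20.9 and 21.9, and the nearest gene was the epithelial factor gene KLF4, at 15248 bp. LINC01392 and LOC105375208 had the motif 1 and 2 bp from the summit, with FOS at 14.5 and 21.9 in the first and 14.4 and 18.4 in the second. The inner promoter of MEF2C, a MADS-box factor gene, had FOS at 14.4 and 14.8 with the motif 17 bp away, PRKG2-AS1 15 and 15.3 at 20 bp, and LOC124900414 14.6 and 15.3 at 11 bp. In the windows without TGANTCA, FOS was in the same range, at 13.9 and 24.7 in LOC124903385 and 14.8 and 14.9 in XIRP2-AS1. A missing match says only that these letters are not in the window.

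TGANTCA occurred in 93 of the 136 windows of the sites, or 68.4% (95% Wilson interval 60.2 to 75.6), and in 7.73% of the 34796 distinct promoter windows of the same length. The motif is its own reverse complement, so both strands are covered by 1 search. Windows of distal acetylated FOS intervals that overlap MYRF held it in 31 of 46 cases, or 67.4%, an odds ratio of 1.05 (95% interval 0.512 to 2.14, two-sided Fisher's exact test, adjusted p = 1). Windows of acetylated FOS intervals without MYRF within 10 kb of a gene end held it in 120 of 269, or 44.6%, and the share at the distal sites was higher, with an odds ratio of 2.69 (1.74 to 4.15, exact test, adjusted p = 8.6e-06). Against distal FOS intervals with neither H3K27ac nor MYRF, with 9 of 11 windows, the odds ratio was 0.481 (0.0996 to 2.32, exact test, adjusted p = 0.57), an interval too wide to rank the classes.

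The limit of 10 kb keeps the distal sites out of windows at the outer starts of protein-coding genes. The rule itself thus made the kind of window differ in the contrast with sites near gene ends. Base composition differed as well, and the part of either in the contrast was not tested. Among windows of long noncoding RNA genes the shares were 66 of 97, or 68.0%, at the distal sites and 26 of 50, or 52.0%, near gene ends. In windows of protein-coding genes they were 27 of 39, or 69.2%, and 94 of 219, or 42.9%. Mean GC content was 49.8% in windows of the distal sites, 58.95% in those near gene ends and 57.5% over all promoter windows.

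Among the motif nearest the summit in each of the 93 windows, the letters were TGACTCA in 42, TGAGTCA in 35, TGATTCA in 12 and TGAATCA in 4, read on the gene's strand. The first 2 are the same element on opposite strands, as are the last 2. Its median distance to the summit was 52 bp, and in 31 windows, or 33.3%, it was within 30 bp. Of all 118 occurrences in the windows, 54, or 45.8%, lay within 50 bp of the summit and 23 more than 100 bp from it. Among other elements searched, described below, the share within 50 bp was 48.15% of 27 occurrences for CTGGNAC and 31.4% of 35 for GGAATG. Whether the AP-1 motif lies nearer the summit than they do was not tested. Windows with the motif had median FOS folds of 6.81 and 7.99, and the 43 without it 5.15 and 5.76, while their H3K27ac medians were 11.5 and 11.3 in knockout and 11.1 and 11.6 in control libraries with the motif, and 12.3 and 11.8 in knockout and 11.9 and 12.04 in control libraries without it. Ranked by FOS in the library where it was lower, 54 of the 68 stronger windows and 39 of the 68 weaker ones held the motif.

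**Figure D1:**
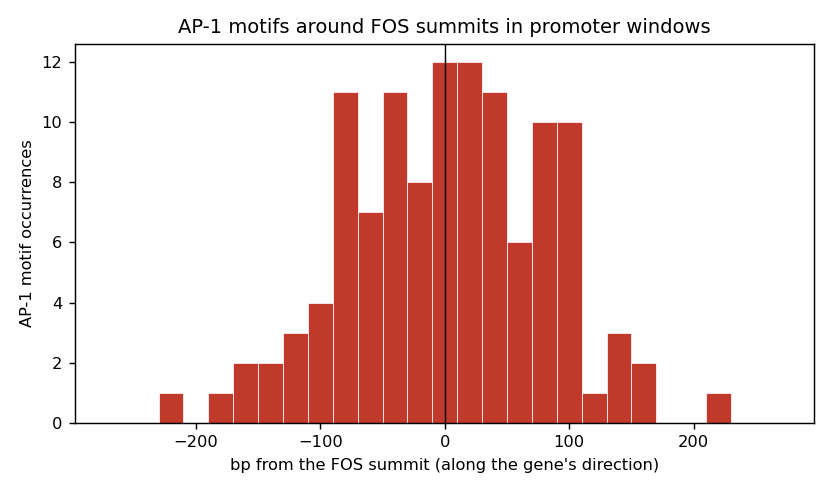
Distance in bp from the FOS summit (x axis, along the direction of the gene) of all 118 occurrences of the AP-1 motif in the 136 promoter windows that hold a summit of these sites (y axis, occurrences per 20 bp bin). Of the occurrences, 54 lie within 50 bp of the summit and 23 beyond 100 bp. Since a window has 300 bases, fewer windows reach the far distances. Within 50 bp lie 13 of 27 occurrences of CTGGNAC and 11 of 35 of GGAATG, which are not drawn.

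Of 8 other elements searched on both strands, the TEAD element GGAATG was in 33 of the 136 windows, or 24.3%, against 14.04% of all promoter windows. The MYRF element CTGGNAC was in 24, or 17.6%, against 18.4%. The remaining elements and their shares at the sites and over all windows were 10.3% and 10.4% for the GATA element AGATAA, 6.62% and 3.42% for the forkhead element TGTTTAC, 4.41% and 4.28% for the RUNX element TGTGGTT, 2.94% and 1.84% for the CREB element TGACGTCA, 0.735% and 1.72% for the grainyhead element AACNGGTT, and 0.735% and 0.385% for the HNF4 element CAAAGTCCA. Matches of different elements may share bases, and none of these shares was tested.

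FOS at the 9276 sites spanned a wide range. Fold enrichment ran from 2.14 to 41.8 in library 1, with a median of 5.72, and from 2.24 to 51.7 in library 2, with a median of 6.45. Across sites the libraries ordered FOS alike (Spearman's rho 0.808 over 9276 sites, a description, since all sites share the libraries). The median site stood at percentile 56.3 and 65.5 of its FOS list. Intervals were 205 to 3491 bp wide, with a median of 726 bp.

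The strongest site lay inside UBTD1, which encodes a ubiquitin-like domain protein, at chr10:97541948-97543824. FOS there was 41.8 and 51.7, the highest of all sites in both libraries, and H3K27ac was 24.5 and 23.97 in knockout libraries and 24.9 and 34.9 in control libraries. The next, inside the neuropeptide FF receptor gene NPFFR2 (chr4:72112030-72113487), had FOS at 37.1 and 42.1 beside weak H3K27ac, at 6.13 and 4.02 in knockout libraries and 7.59 and 6.74 in control libraries. LUZP2, a leucine zipper protein gene, held the third (chr11:25065406-25066396), with FOS at 35.6 and 40.2 and H3K27ac at 5.23 and 4.56 in knockout libraries and 9.67 and 5.54 in control libraries. Strong FOS thus stood beside both high and low H3K27ac.

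The other 9 of the 12 strongest sites had FOS folds between 27.4 and 36.0. Nearest or surrounding genes were PCCA, a subunit of propionyl-CoA carboxylase, FST, which encodes the activin inhibitor follistatin, and STX16, a syntaxin of Golgi transport. Others were SHB, an adaptor of receptor tyrosine kinases, the transmembrane collagen gene COL13A1, the microtubule plus-end gene CLIP1, the zinc finger factor gene HIVEP3 and the receptor gene LDLRAD3. The site 14119 bp from FGFBP1, a secreted carrier of fibroblast growth factors, combined FOS at 32.5 and 31.5 with H3K27ac at 22.2 and 18.3 in knockout libraries and 30 and 29.2 in control libraries. At the FST site, 177267 bp from the gene, H3K27ac was 7.81 and 7.25 in knockout libraries and 7.93 and 9.33 in control libraries.

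**Figure D2:**
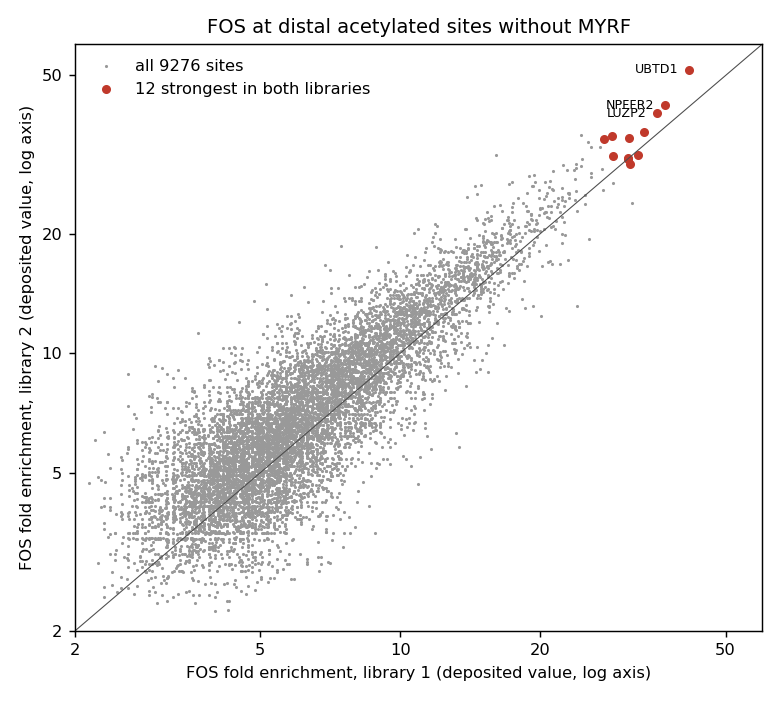
FOS fold enrichment of each of the 9276 sites in FOS library 1 (x axis) and library 2 (y axis), as the authors' deposited ratio on log axes; the line marks equal values. Red points are the 12 sites highest in both libraries, of which the UBTD1 site at 41.8 and 51.7 is the top.

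H3K27ac at the sites had median folds of 8.997 and 9.31 in the knockout libraries and 9.84 and 9.38 in the control libraries, and the median site stood at percentile 74.9 and 78.9 of the knockout lists and 80.6 and 76.1 of the control lists. The most acetylated sites ranged widely in FOS. At the site inside the actin crosslinker gene ACTN4, for which the calpain protease gene CAPN12 has the nearest gene end (chr19:38692011-38692647), H3K27ac was 36.3 and 33.8 in knockout libraries and 34.1 and 42.03 in control libraries, with FOS at 3.95 and 4.04. At the site 220100 bp from KLF12, a Krüppel-like repressor gene, the H3K27ac values were 32.9 and 29.5 in knockout libraries. They were 30.1 and 37.5 in control libraries, with FOS at 2.93 and 7.91. The site 24811 bp from IGSF23, an immunoglobulin superfamily gene, had H3K27ac at 33.96 and 29.8 in knockout and 35.7 and 35.3 in control libraries and strong FOS, at 19.9 and 25.8. The other 3 of the 6 most acetylated were nearest to SEMA4B, a semaphorin gene, ENSA, an inhibitor of the phosphatase PP2A, and TMEM121. Their distances to these genes were 24214, 16350 and 1314977 bp.

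FOS and H3K27ac strength were nearly unrelated within the set. Spearman's rho between FOS fold and H3K27ac fold was 0.0506 to 0.106 over the 8 pairs of libraries. Across 5 bins of about equal size, from weakest to strongest by the lower of the 2 FOS percentiles, the median FOS fold in library 1 was 3.65, 4.59, 5.61, 7.27 and 11.04. The median H3K27ac fold over the same bins was 8.62, 8.49, 8.81, 9.19 and 9.78 in knockout library 1, and 9.51, 9.24, 9.52, 10.2 and 10.9 in control library 1. So weak a relation in thresholded lists is a description and carries no test.

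Histone marks sit on nucleosomes, while DNA-bound factors usually occupy the stretch between them, so the place of the summit within the acetylated region was examined. In 1719 of the 9276 sites, or 18.5% (17.8 to 19.3), the FOS summit lay under no H3K27ac peak of either control library, although the interval touched one in each. Such a summit is called in a gap below. Whether peaks lay on both sides of it, or it lay past the edge of a single peak, was not examined. Among distal acetylated FOS intervals with MYRF the share was 660 of 2570, or 25.7% (24.03 to 27.4), an odds ratio of 0.658 for the sites without MYRF. Among acetylated intervals without MYRF near gene ends it was 489 of 4367, or 11.2% (10.3 to 12.2), an odds ratio of 1.804 for the distal sites. All 3 classes were chosen for touching a peak in each of these H3K27ac lists, so the shares and odds ratios are a description with no test. Median interval width moved in the same order, at 726 bp at the sites without MYRF, 890 bp at those with MYRF and 676 bp near gene ends, and its part in the shares was not tested.

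The order of the classes held in every library. At the sites without MYRF, the summit was under no peak of that library in 36.2% and 26.8% of cases in the knockout libraries and 23.8% and 31.4% in the control libraries. At distal sites with MYRF the shares were 39.5% and 32.7% in knockout and 30.7% and 35.8% in control libraries, and near gene ends 20.8% and 16.5% in knockout and 15.8% and 17.8% in control libraries. In 13.01% of the sites, no peak of any of the 4 libraries covered the summit. Intervals touching 2 or more separate H3K27ac peaks of 1 library made up 34.6% and 28.3% in knockout and 29.5% and 30.2% in control libraries.

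The share of summits under no control peak was highest where FOS was strongest, in all 3 classes. From the weakest to the strongest bin of FOS, the share under no control peak was 17.1%, 14.4%, 16.1%, 19.8% and 25.2%. With the same bounds it was 25.3%, 21.6%, 23.2%, 24.4% and 28.7% at distal sites with MYRF, and 9.41%, 8.42%, 11.00%, 11.8% and 17.2% near gene ends. FOS had higher medians at distal sites with MYRF, of 7.58 and 8.58, and in each of the 5 bins the sites without MYRF lay between the other classes. The NPFFR2, LUZP2 and FST sites were among those with the summit in a gap.

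**Figure D3:**
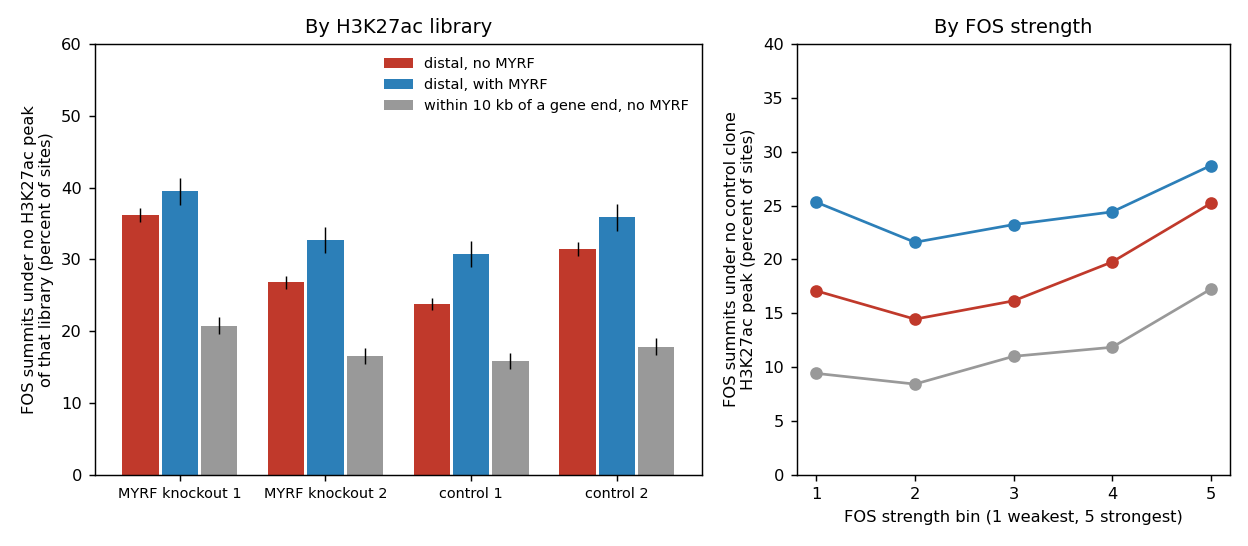
Left, percent of FOS summits under no H3K27ac peak of each library (knockout 1 and 2, control 1 and 2; bars with 95% Wilson intervals) at distal acetylated sites without MYRF, at those with MYRF and at acetylated sites without MYRF near gene ends. Right, the share under no peak of either control library by bin of FOS strength in the same colours; the sites without MYRF run from 17.1% in the weakest to 25.2% in the strongest bin, between the other classes throughout.

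The knockout and the control clone were compared by the length of DNA under H3K27ac peaks in the 2000 bp centred on each FOS summit. Medians were 1508 and 1607 bp in the knockout libraries and 1697 and 1584 bp in the control libraries, so the libraries of the clones overlapped. The median difference per site, knockout minus control, was -35.5 bp, less than the distance between the medians of the 2 control libraries. It was 0 bp without knockout library 1, -1.0 bp without control library 1, -58.0 bp without knockout library 2 and -74.5 bp without control library 2. Both knockout libraries were under both control libraries at 1897 sites, or 20.5%, against 19.7% of all 17175 reproducible FOS intervals acetylated in 4 lists, and over both at 797, or 8.59%, against 8.83%. The shares at the sites were thus near the background in each direction, and with 2 libraries a group and presence in all 4 fixed by the rule there is no test. Leaving out any 1 of the 4 H3K27ac libraries raised the shares, since 1 library less had to be passed. The share under control was then 28.2% (without control library 1) to 46.2% (without knockout library 2) at the sites and 28.2% to 42.7% over all acetylated FOS intervals, and the share over control 15.5% (without control library 2) to 26.3% (without control library 1) at the sites and 17.2% to 24.97% over all.

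Single sites showed both patterns. Near CREB3L1, a membrane-bound factor gene of the unfolded protein response, cover was 788 and 714 bp in knockout libraries and 1915 and 1668 bp in control libraries. At the ST6GALNAC1 site, near a gene for a sialyltransferase of mucin-type glycans, it was 928 and 483 bp in knockout and 1499 and 1624 bp in control libraries. Over the KLF4 site, the one at LOC105376206, it was 1468 and 1547 bp in knockout and 1143 and 986 bp in control libraries, and near the epidermal growth factor receptor family gene ERBB4 1706 and 1594 bp in knockout and 1314 and 1260 bp in control libraries. In the first 2 both knockout libraries were lower, and in the other 2 both were higher. At COL13A1 the libraries of a clone disagreed, with 411 and 1587 bp in knockout and 1930 and 1096 bp in control libraries.

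**Figure D4:**
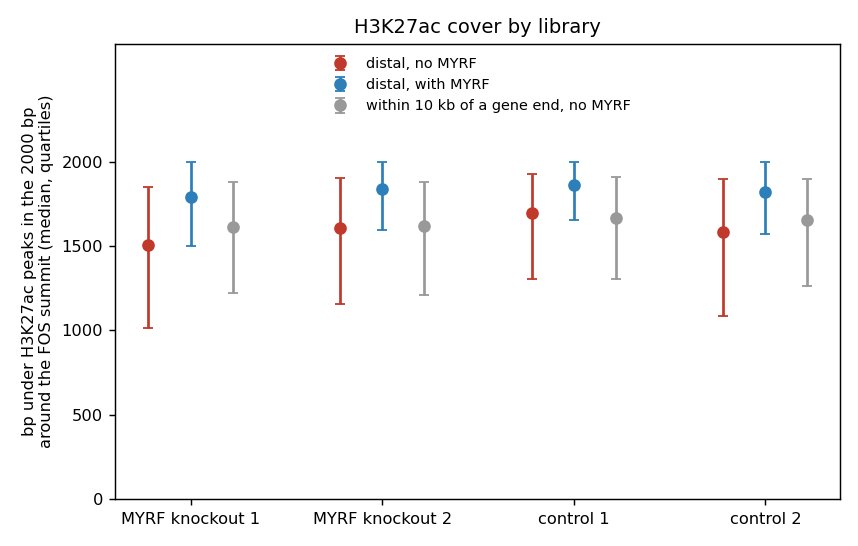
Base pairs under H3K27ac peaks in the 2000 bp around the FOS summit (y axis) in each H3K27ac library, as median (point) and quartiles (bars), for distal acetylated sites without MYRF, those with MYRF and acetylated sites near gene ends. Medians of the sites without MYRF are 1508 and 1607 bp in knockout and 1697 and 1584 bp in control libraries.

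H3K27ac regions that held none of the sites but lay within 10 kb of a summit numbered 26097. Of these, 1201 or 4.602% were in both control libraries and in neither of the knockout ones, against 3.51% of all 134465 regions, and 499 or 1.91% were present in both knockout libraries and in neither of the control ones, against 1.7%. Beside distal sites with MYRF, the shares were 4.61% lost and 1.79% gained, and beside acetylated sites near gene ends 3.60% and 1.72%. Regions present in all 4 libraries made up 28.3% of those beside the sites and 40.2% of all regions, and the part of this in the difference was not tested. The sites were chosen for a peak in all 4 lists. Regions that hold a site count among all regions but not among those beside the sites, so the bases of these shares are unlike. With 1 of the 4 H3K27ac libraries left out, the share lost was 8.92% (without knockout library 1) to 20.2% (without control library 2) beside the sites and 7.11% to 15.5% of all regions. The share gained was then 4.14% (without control library 2) to 12.5% (without knockout library 2) beside the sites and 3.55% to 10.8% of all regions. Of the 1201 lost regions beside the sites, 6 held a MYRF peak, as did 2 of the 499 gained. Among all regions, 67 of 4726 lost and 14 of 2287 gained ones held a MYRF peak. These counts were not tested.

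The lost neighbour of highest fold in control library 1 lay inside TENM2, a teneurin adhesion gene (7.86 and 4.56 in the control libraries, 325 bp from a summit). It was 503853 bp from the nearest end of that gene. The next lost neighbours were 14468 to 42335 bp from their nearest genes. These were FCGBP, an Fc-binding mucus protein gene (7.81 and 5.32), and TGM2, a transglutaminase gene (7.64 and 5.39). Then came GNA13, a G protein gene (7.53 and 6.396), and ADM, the adrenomedullin gene (7.53 and 5.97). Gained ones of high fold in knockout library 1 lay inside APBB2, an adaptor gene, nearest to NSUN7 (7.83 and 5.85 in the knockout libraries, 214 bp from a summit), and near ENSA (7.46 and 5.04), SHLD1, a DNA repair gene (6.79 and 5.05), and PXDN, a peroxidase gene (6.77 and 4.56). None of these regions held a MYRF or a reproducible FOS interval.

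MYRF was close to few of the sites. By the rule none overlaps it, and a reproducible CFPAC1 MYRF peak lay within 1 kb of 61 summits (0.658%), within 10 kb of 756 (8.15%, 7.61 to 8.72), within 50 kb of 2118 (22.8%) and within 100 kb of 3188 (34.4%). The median distance was 219593 bp. Near gene ends, 325 of 4367 acetylated sites, or 7.44%, had MYRF within 10 kb, an odds ratio of 1.10 for the distal sites. Among distal sites without H3K27ac and MYRF, 33 of 3111 or 1.06% had MYRF within 10 kb, an odds ratio of 8.28. The MYRF and H3K27ac lists defined these classes, so the shares and odds ratios are a description with no test.

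From the weakest to the strongest FOS bin the share of sites with MYRF within 10 kb was 10.5%, 9.16%, 7.89%, 7.65% and 5.55%, given as a description. Near gene ends it was 9.02%, 7.16%, 6.92%, 8.44% and 4.90%. At distal sites without H3K27ac and MYRF it was 1.45% in the weakest and 0.431% in the strongest bin. Distal sites with MYRF, chosen for overlap with it, had 49.8% in the weakest and 57.1% in the strongest bin. In 591 sites, or 6.37%, a MYRF peak of 1 of the 4 lists lay elsewhere in the same merged H3K27ac region.

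The sites were spread from 10018 to 1973224 bp from the nearest gene end, with a median of 50220 bp. Within 25 kb lay 2469 of them, or 26.6%, from 25 to 50 kb 2156, from 50 to 100 kb 2016, from 100 to 500 kb 2347 and farther 288, or 3.10%. Median FOS fold in library 1 changed little over these ranges, from 5.68 within 25 kb to 5.86 beyond 500 kb. The median H3K27ac fold in library 1 was 9.58 in knockout and 9.92 in control within 25 kb, and 7.81 in knockout and 9.50 in control beyond 500 kb. The farthest site was nearest to AGA, a lysosomal glycoprotein-degrading enzyme gene, with FOS at 8.75 and 8.81 and H3K27ac at 4.75 and 4.22 in knockout and 5.67 and 4.39 in control libraries. Just inside the limit were sites of WDR1, an actin disassembly gene, at 10018 bp (FOS 17.4 and 17.3) and CDC42EP4 at 10030 bp (3.76 and 4.22), and just outside were those of the caveolin gene CAV1 at 9990 bp (4.24 and 6.85) and PJA1, a ubiquitin ligase gene, at 9988 bp (6.86 and 6.83).

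About as many of the sites lay inside genes as outside. The summit was within the span of a protein-coding gene in 4790 of 9276, or 51.6% (50.6 to 52.7), against 1138 of 2570, or 44.3%, of distal acetylated sites with MYRF (odds ratio 1.34, 1.23 to 1.47, two-sided Fisher's exact test, adjusted p = 7.3e-11). Intervals of 1 genome are not replicates of a condition, so the test speaks for these lists. The share was also above the 1389 of 3111, or 44.6%, of distal sites without H3K27ac and MYRF (odds ratio 1.32, 1.22 to 1.44, exact test, adjusted p = 3.6e-11). Those sites lay farther from gene ends, at a median of 66643 bp, against 50220 bp here and 50468 bp at sites with MYRF. Here the share inside genes was 57.6% within 25 kb, 60.7% from 25 to 50 kb and 11.8% beyond 500 kb. The part of distance in the differences was not tested. Exons and introns were not told apart, since the annotation used holds gene spans alone. By chromosome, the sites made up 18.0% of FOS intervals on chromosome 19, the lowest share, and 40.6% on chromosome 21, the highest.

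Most of the sites stood alone. Chaining summits within 12.5 kb gave 7273 groups, in which 5777 sites, or 62.3%, had no partner and 154, or 1.66%, were in the 27 groups of 5 or more. The largest groups had 8 sites each, next to the kinase gene CDK17 and CFAP54 over 50971 bp of chromosome 12, and next to the zinc transporter gene SLC39A11 over 34702 bp of chromosome 17. Then came groups of 7 near ARF6, a small GTPase gene of membrane traffic, near VCPKMT, a lysine methyltransferase gene, and inside MYH9, the nonmuscle myosin heavy chain gene. In medians, grouped sites had higher H3K27ac and not higher FOS. Median H3K27ac folds were 12.6 and 12.05 in knockout and 13.7 and 14.1 in control libraries in groups of 5 or more, against 8.18 and 8.62 in knockout and 9.12 and 8.58 in control libraries at single sites, and FOS medians were 5.44 and 5.88 in groups of 5 or more and 5.88 and 6.601 at single sites.

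A site counted towards a protein-coding gene if an end of that gene was the closest and no more than 50 kb away, which placed 4625 sites, or 49.9%, at 2911 genes, or 14.6% of 19880. Of those genes, 1860 had 1 site and 60 had 5 or more. The genes with most sites, picked after their counts were seen, were MYH9 with 9, the phospholipase gene PLB1, the protein kinase C gene PRKCE and SMAD3, a transducer of TGF beta signals, with 8 each, and the hepatocyte growth factor receptor gene MET with 7. A gene with a wide surround can gather more sites. The length of DNA in which a site would be assigned to a gene had a median of 29106 bp and was 0 for 4017 genes, and over 4 equal groups of genes from the shortest to the longest by this length 0.221%, 7.65%, 18.85% and 31.85% had a site. The shares of the lists below are to be read beside these values, and no test was made of them.

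The epithelial and foregut transcription factors led the 14 gene lists, with 14 of 22 genes and 32 sites, and a median assignable length of 80000 bp. The site of strongest FOS lay 15248 bp from KLF4, a zinc finger factor of epithelial differentiation, at 20.9 and 21.9. KLF6, a related factor gene, had 15.4 and 16.5 and RUNX1, a factor best known from blood formation, 8.35 and 14.96. The ETS factor genes ELF3 and EHF and the hepatocyte nuclear factor gene HNF4A also had at least 1 site. For AP-1 and related factors the count was 6 of 14, at a median assignable length of 20654 bp, namely FOS, JUN, FOSL2, ATF3, MAFF and NFE2L2. The FOSL2 site, near the gene of a FOS relative, had 18.3 and 17.05, and the ATF3 site, inside a stress-induced partner gene, 12.3 and 14.6.

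Signalling lists had shares of 46.2% to 56.2%, and their median assignable lengths were 70026 bp for TGF beta, 66759 bp for MAP kinase feedback and 74814 bp for YAP and TEAD. TGF beta signalling and mesenchymal genes had 9 of 16 genes and 27 sites, with SMAD3 at 19.7 and 21.3, ZEB1, a repressor of epithelial genes, at 11.4 and 12.5, and the receptor gene TGFBR2 at 9.82 and 11.5. Of MAP kinase feedback regulators 7 of 14 had a site, led by SPRED2, an inhibitor of RAS signalling (11.5 and 13.6), and by the phosphatase genes DUSP1 (11.7 and 10.2) and DUSP10 (6.87 and 10.1). The YAP and TEAD list also had 7 of 14, including the DNA-binding partner genes TEAD1 (9.50 and 10.7) and TEAD3 (7.61 and 8.27) and the YAP inhibitor gene AMOTL2 (8.54 and 9.83). EGFR family, MET and ligand genes had 6 of 13 at the longest median assignable length of the lists, 109764 bp. FOS there was 12.6 and 16.95 inside MET, 12.9 and 9.21 near ERBB4 and 7.93 and 12.2 inside EGFR.

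Lists of the tumour's surface and surroundings had median assignable lengths of 40000 bp for glycoproteins, 17027 bp for metalloproteinases and urokinase and 37869 bp for chemokines and cytokines. Mucins and epithelial adhesion glycoproteins had 9 of 23, with ITGB6, an integrin chain of epithelia (12.5 and 12.5), the epithelial adhesion gene EPCAM (9.50 and 11.6) and the hyaluronan receptor gene CD44 (8.75 and 13.6). Matrix metalloproteinases and the urokinase system had 6 of 15, among them the collagenase gene MMP13 (10.4 and 11.3), the urokinase gene PLAU (10.8 and 10.1) and the gelatinase gene MMP9 (4.53 and 4.41). Chemokines and inflammatory cytokines had 4 of 16, with NFKBIA, an inhibitor of NF-kB, at 12.3 and 16.6, IL18 at 8.98 and 13.1 and the neutrophil chemokine gene CXCL8 at 5.21 and 6.11. Of the pancreatic cancer drivers 7 of 12 had a site, the second highest share of the 14 lists, at a median length of 55358 bp. They included GNAS, a G protein gene (8.41 and 10.4), the demethylase gene KDM6A (5.86 and 7.05) and the cell cycle kinase gene CDK6 (5.002 and 5.998).

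Programs used to class pancreatic tumours had shares of 23.5% and 25%, with median assignable lengths of 13224 bp for the basal-like and 15680 bp for the classical program. The basal-like program had 4 of 17 genes found, with FGFBP1, DHRS9, a dehydrogenase gene (7.08 and 6.89), and the keratin gene KRT17 (5.22 and 4.77). The classical program had 4 of 16, with ST6GALNAC1 (11.8 and 11.9), AGR3, a gene of the disulfide isomerase family (11.2 and 12.9), and the annexin gene ANXA10 (5.81 and 6.85). ER chaperones and the unfolded protein response had 3 of 22, or 13.6%, at 24100 bp and close to the share of all genes, namely the stress sensor gene ERN1 (6.72 and 7.01), CREB3L1 (5.01 and 7.99) and its relative CREB3L2 (8.49 and 9.36). Cytosolic ribosomal proteins had 2 of 22, or 9.09%, at RPL3 (7.99 and 12.4) and RPS14 (3.68 and 3.87), and 12 of the 22 had no DNA in which a site could be assigned to them.

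**Figure D5:**
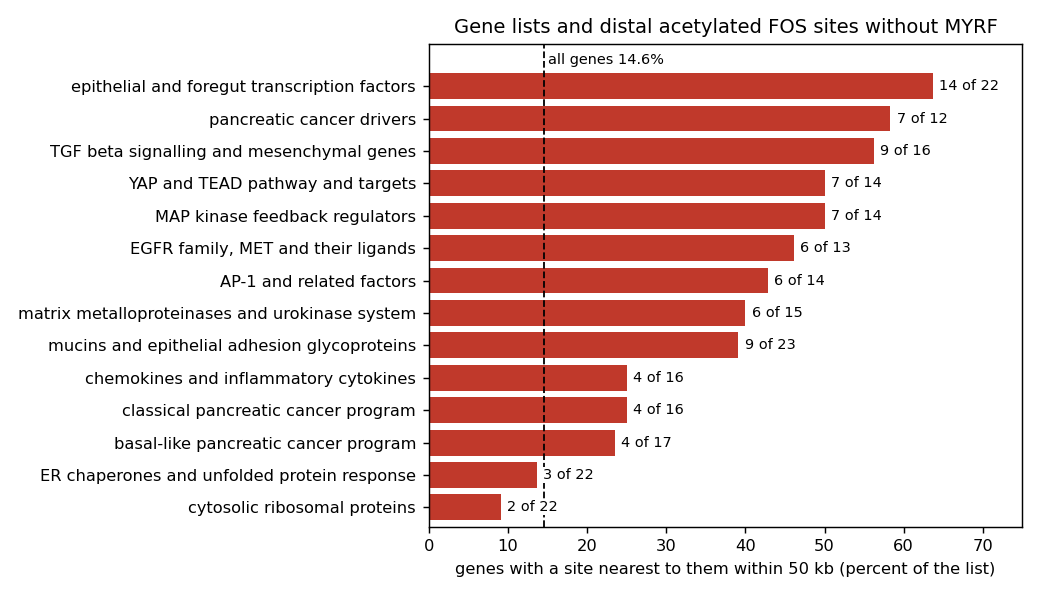
Percent of the genes of each list (y axis) that had at least 1 distal acetylated FOS site without MYRF nearest to them within 50 kb (x axis), with counts at the bars; the dashed line is the share of all protein-coding genes, 14.6%. The lists run from epithelial and foregut transcription factors, 14 of 22, to cytosolic ribosomal proteins, 2 of 22.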

How the data were processed

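ChIP-seq peak lists of 10 libraries, 2 in each of 5 groups, were analysed, and 1 HPAF2 input sample was not analysed here. Per the submitters' processing notes, the tools were MACS2 2.1.0.20150731, Bowtie2 2.2.6, Trimmomatic 0.38 and SAMtools, and the build was GRCh38 (hg38). Each deposited list was called per library and gives for each peak the authors' fold enrichment (a ratio to a local background estimate), -log10 p, -log10 q and an integer score, which equals 10 times -log10 q cut to a whole number. The control behind the CFPAC1 calls is not given in the sources used here, and depth is unknown, so lists were compared by presence and covered length. No interval with equal fold occurred in both libraries of a FOS or H3K27ac group.

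Overlap meant at least 1 bp. Genes were the 19880 protein-coding genes of the RefSeq table placed on chromosomes 1 to 22, X and Y, which names GRCh38.p14; 236 of 237 list entries were found. Shares carry 95% Wilson intervals, which cover counting over sites only. Shares were compared by two-sided Fisher's exact tests with Benjamini-Hochberg adjustment over 9 tests, at 0.05; the 4 on summit gaps and on nearby MYRF use lists that chose the sites, so their p-values are not reported. Named sites were the 12 strongest in FOS and 6 in H3K27ac, up to 3 genes per list by FOS, the 5 largest groups and 5 lost and 5 gained neighbours; sites on chromosome 8 are counted and not named singly, and some named items are not reported here. Members, lists and tests were chosen with earlier results of these data known. The motif search in promoter windows, the FOS bins and 1 site per group were added after the files were seen, since no genome was given. Alternatives covered the q threshold, the overlap, the summit, distances, windows and each library. Tests used scipy 1.17.1 under Python 3.11.15, tables pandas 2.3.3 and numpy 2.4.6, and plots matplotlib 3.10.9. A check of the counts of acetylated intervals, with and without MYRF, by bedtools 2.31.1 gave 0 differences.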

Additional observations from a re-analysis of the deposited data

How the results depend on the processing

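No paired analysis was possible because the results come from shares of intervals or from descriptions, with no fit over samples to which a replicate block could be added. Over 16 results and 276 combinations of result and setting, 256 stayed within the limit set for their kind: the same direction and side of the threshold for odds ratios, within 1.5 times for counts and shares, and within 1 SD of the control library medians for the difference in H3K27ac cover. The summit gap comparisons are among them, at 18 of 18 settings each, and those of nearby MYRF, at 16 of 19 and 19 of 19. The lists behind these comparisons chose the sites, so their stability adds no support. The cover difference of -35.5 bp ran from -107 bp with a window of 4000 bp, over -0.75 bp with 1000 bp, to 0 bp without knockout replicate 1. With -log10 q of at least 10 in the FOS and H3K27ac lists, the sites numbered 2951 and 50 list genes had a site, against 9276 and 88. The odds ratio for MYRF within 10 kb against sites near gene ends was 1.10 as reported, 1.21 with an H3K27ac overlap of at least 50 percent, 1.32 with 5 kb as the limit of distal and 1.16 without FOS replicate 2, and ranged from 0.983 to 1.16 when each library was left out.

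Leaving out each library in turn gave 9370 to 11450 sites. Calls that need both libraries of each clone had higher shares by construction when 1 H3K27ac library was left out. Over all libraries left out in turn, knockout cover under control ran from 20.2% to 46.2% of sites (highest without knockout replicate 2), knockout cover over control from 8.40% to 26.3% (highest without control replicate 1), lost neighbouring regions from 4.58% to 20.2% (highest without control replicate 2) and gained ones from 1.896% to 12.5% (highest without knockout replicate 2). Beside these, all regions had 7.11% to 15.5% lost and 3.55% to 10.8% gained without an H3K27ac library, and the share beside the sites was above the share of all regions each time. All regions include those that hold a site, which the rule chose for a peak in every H3K27ac list used. The repeated order therefore adds no support. Shares over 1 site per group gave odds ratios of 0.687 for the gap against sites with MYRF and 1.32 for gene spans. With genes of alternate scaffolds the sites numbered 9270. The planned motif search in 200 bp around every summit, and in 100 bp, was not run, since it needs a genome. Depth is unknown and limits what absence from a list means.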
